A study of Mus musculus with 36 samples.

Results

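The genes described here are 9 classical targets of the miR-17~92 cluster known from other tissues: Cdkn1a, E2f1, E2f2, E2f3, Rbl1, Tgfbr2, Thbs1, Bmpr2 and Phlpp2. They were taken by symbol from bulk RNA-seq count tables of mouse gonads that list 21699 genes at each stage. All 9 passed the filter on low values, which asked for 1 or more CPM (counts scaled to library size) in 2 or more libraries, among 14217 genes tested at E11.5 and 14348 tested at E12.5. The choice rests on their record as targets, not on a cut in their levels, but was made with earlier results of these data known. The question is whether each was higher in mutant gonads than in control gonads of the same sex and stage.

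Control and KO gonads of both sexes were sequenced at E11.5 and E12.5 (embryonic days), which gives 4 genotypes with 3 libraries each at either stage. KO embryos lacked both copies of the miR-17~92 cluster; the deleted allele came from a floxed allele crossed with the Tg(CAG-cre) line, whose Cre is driven by the CAG promoter, so the loss was not limited to the gonad. Control embryos were labelled wild type. Each library pooled 2 pairs of gonads. The tissue was the gonad with its mesonephros (the embryonic kidney beside it) at E11.5 and the gonad alone at E12.5, and the library kits of the stages differed too, so each stage was fitted apart and no value was tested between stages.

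MicroRNAs are short RNAs that pair through bases 2 to 8, the seed, with sites in the 3′ UTR of a messenger RNA and lower its stability or translation. The miR-17~92 cluster is transcribed as a single host RNA, Mir17hg, and yields microRNAs of 4 seed families. Its reported targets brake the cell cycle (the inhibitor Cdkn1a, the pocket protein Rbl1) or drive it (the E2F factors), carry TGF-beta and BMP signals (Tgfbr2, Bmpr2), form matrix that restrains vessel growth (Thbs1), or oppose AKT signalling (Phlpp2). In normal fetal gonads at these days XY cells take the testis path and XX cells the ovary path. The authors report that XY KO gonads turn to the ovary path instead. How far this switch, rather than target loss, shaped the XY values below was not tested.

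The mature sequences are shown first since every match below refers to them. They are RefSeq sequences on mouse chromosome 14 (GRCm38.p6, plus strand), written 5′ to 3′ with the seed in capitals.
mmu-miR-17-5p: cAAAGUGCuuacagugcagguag
mmu-miR-20a-5p: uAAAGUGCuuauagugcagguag
mmu-miR-18a-5p: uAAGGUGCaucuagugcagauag
mmu-miR-19a-3p: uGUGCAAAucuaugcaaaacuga
mmu-miR-19b-3p: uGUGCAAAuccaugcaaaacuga
mmu-miR-92a-3p: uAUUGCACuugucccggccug
miR-17-5p and miR-20a-5p share the miR-17 seed, miR-19a-3p and miR-19b-3p share the miR-19 seed, and miR-18a-5p and miR-92a-3p each have their own.

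The longest annotated 3′ UTR of each gene (GENCODE, GRCm38, the assembly also called mm10) was searched on the transcript strand for the letters that pair with these seeds, GCACTTT for miR-17, GCACCTT for miR-18, TTTGCAC for miR-19 and GTGCAAT for miR-92. A match to bases 2 to 8 is a 7mer-m8, the same with an A after it is an 8mer, and a match to bases 2 to 7 with an A after it is a 7mer-A1. The letters of the families overlap, since GCAC ends the miR-19 match and opens the miR-17 and miR-18 matches. A selection is shown, with the match in capitals. It holds the miR-17 matches of Cdkn1a, E2f1 and Rbl1 and the 8mer or 7mer-m8 matches of Tgfbr2 and Thbs1. The 8mer of E2f3, a gene not called in the main edgeR fit, is shown too. A miR-18 7mer-m8 of E2f1, 2 7mer-A1 matches of Tgfbr2 and 1 of Thbs1 are not printed.
Cdkn1a, miR-17, chr17:29099829-29099835, plus strand: ctcagacctgaataGCACTTTgga
E2f1, miR-17, chr2:154560212-154560218, minus strand: ggtgggctctaactGCACTTTtgg
E2f1, miR-17, chr2:154559697-154559703, minus strand: ccaccctccagtctGCACTTTgat
Rbl1, miR-17, chr2:157147477-157147483, minus strand: tttgcctgatcaaaGCACTTTtgg
Tgfbr2, miR-19, chr9:116090077-116090083, minus strand: aacagccaataacgTTTGCACttt
Tgfbr2, miR-17, chr9:116090073-116090080, minus strand: agccaataacgtttGCACTTTAtta
Thbs1, miR-18, chr2:118125064-118125070, plus strand: ccagcgctggcaatGCACCTTcta
E2f3, miR-17, chr13:29908077-29908084, minus strand: gacagaagacaccgGCACTTTAaac
The miR-19 and miR-17 matches of Tgfbr2 share 4 bases.

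All 9 genes held at least 1 8mer or 7mer-m8 match, against 33.2% of 14037 tested genes with an annotated 3′ UTR. A miR-17 match of these kinds was present in 8 of the 9 (all but Thbs1) and in 14.1% of all genes. For miR-18 the share over all genes was 9.23% and 4 of the 9 held a match, for miR-19 13.0% and 3 of the 9, and for miR-92 7.64% and 3 of the 9. The 9 genes were picked as known targets and have long 3′ UTRs, with a median of 3020 bases against 1165 for all genes, so these shares are a description of the list. Like length was taken as 0.8 times a gene's own length up to that length divided by 0.8. Among the 181 genes of like length to Bmpr2 (8529 bases), 90.1% held an 8mer or 7mer-m8 match of some family; among the 2257 of like length to Cdkn1a (1334 bases), 34.7% did. Cdkn1a and Rbl1 held 1 match each, and that of Rbl1 began 23 bases after the stop codon. Bmpr2 and Phlpp2 held 6 each when 7mer-A1 matches were counted. A match says only that these letters stand in the 3′ UTR.

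**Figure D1:**
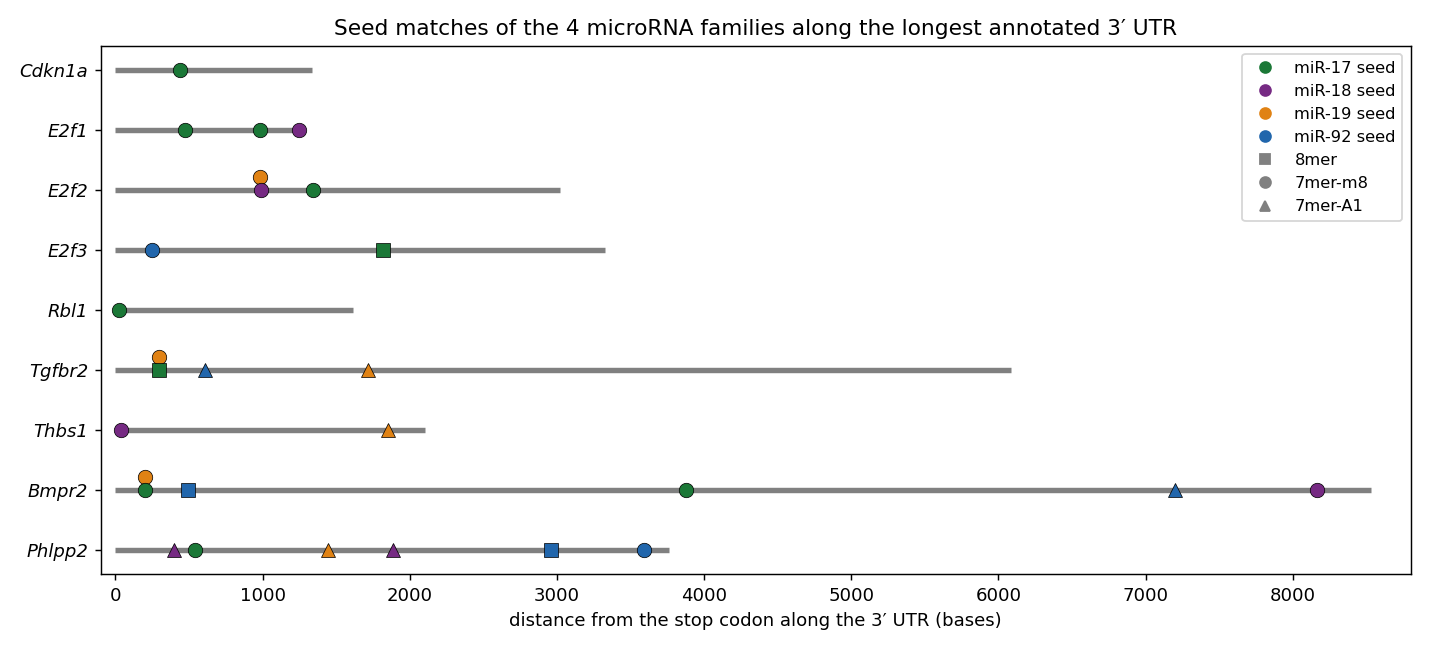
Each grey bar is the longest annotated 3′ UTR of a gene, drawn to scale from the stop codon in bases, with seed matches of the 4 microRNA families in colour and the kind of match by shape (overlapping miR-19 matches are raised). Thbs1 is the gene without a miR-17 match, and the bar of Bmpr2 is the longest at 8529 bases.

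Total counts were 17150620 to 34077443 per library at E11.5 (median 22053404) and 11877379 to 44155275 at E12.5 (median 21673453), and no library held fewer than 308 counts of any of the 9 genes at E11.5 or 184 at E12.5. Mir17hg was higher in every KO library than in every control library of its sex and stage, with a log2 fold change over both sexes of 2.203 ± 0.178 (SE, FDR 2.33e-05) at E11.5 and 1.56 ± 0.15 (FDR 9.67e-06) at E12.5. The counts are per gene and do not say whether reads fell in the deleted part, so they do not check the deletion. Xist and 4 Y-linked genes followed the sex labels in all 24 libraries. None of 7 lists of cell type markers had a gene at 0 in a group. At E11.5, XY control replicate 2 stood apart from its group, with a mean correlation of 0.986 with it, the lowest of that stage. Its summed level of 8 mesonephric markers was 352 CPM against 208 and 240 CPM in the other XY controls. The XX controls had sums of 317 to 343 CPM, close to that of this library. At E12.5 the lowest such correlation was 0.982, in XX KO replicate 2. The main changes without these libraries are given for the 9 genes and the partner lists, but not for the markers. In whole gonads, fewer cells of a type and less RNA per cell cannot be told apart.

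At E11.5, 4 of the 9 genes were higher in mutant gonads when the effects in both sexes were averaged: E2f1, Rbl1, Tgfbr2 and Thbs1. None was lower, also at an unadjusted p under 0.05. Over all tested genes 7.35% were called higher in that comparison (edgeR quasi-likelihood test, Benjamini-Hochberg FDR under 0.05, as in every comparison here). The median log2 fold change of the 9 genes was 0.26 against -0.01 for all genes, and 8 of the 9 values were above 0. In each of the 4 genes, all 3 KO libraries lay above all 3 control libraries in XX and again in XY, which was so for 4.57% of all genes. In an exact permutation test within sex over 400 arrangements (two-sided, on log2(CPM + 2)), each of the 4 had p = 0.005, the smallest this design can give. Such separation in both sexes fixes this p, so the test adds nothing to it. Taken by sex, 3 genes were called higher in XY KO gonads (Rbl1, Tgfbr2, Thbs1; 5.88% of all genes) and 1 in XX KO gonads (E2f1; 1.81% of all genes); with the fit limited to the 2 XY genotypes the 3 became 1 (Rbl1). None of the 9 was called in the test of a different effect in the sexes, in which 0.0352% of all genes were called; by DESeq2 and at an unadjusted p under 0.05 the count was also 0. E2f1, called in XX only, differed between the sexes by -0.11 (95% interval -0.40 to 0.19).

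**Figure D2:**
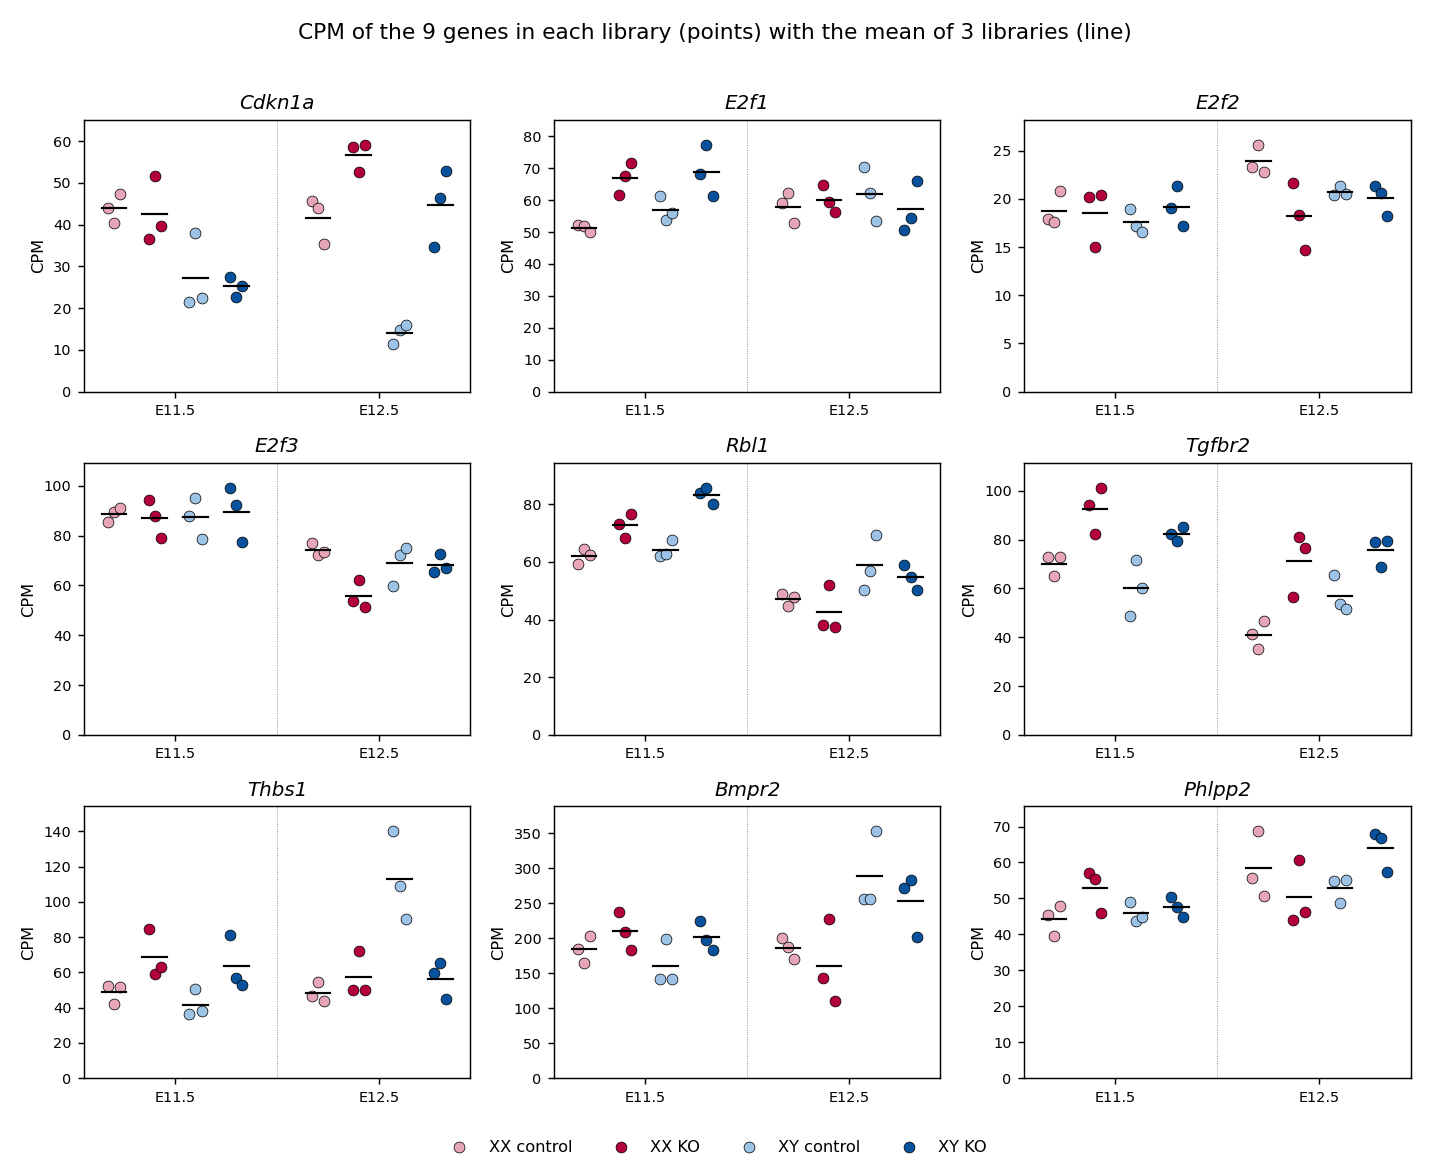
Each point is the CPM of a library and each line the mean of 3 libraries, by genotype and stage, on axes that start at 0. At E11.5 the KO points of E2f1, Rbl1, Tgfbr2 and Thbs1 lie above the control points of the same sex, and at E12.5 Cdkn1a is lowest and Thbs1 highest in XY controls.

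Rbl1 encodes p107, a pocket protein that binds E2F factors and holds back entry into S phase. At E11.5 its level was 62.2, 62.8 and 67.6 CPM in XY controls and 83.9, 85.7 and 80.0 CPM in XY KO gonads. In XX it was 59.4, 64.4 and 62.4 CPM in controls and 73.2, 68.5 and 76.6 CPM in KO gonads. The groups did not overlap in either sex, and the XY KO libraries were the highest of the 12. Its log2 fold change was 0.37 ± 0.08 (SE, FDR 0.00835) in XY, 0.23 ± 0.08 (FDR 0.158) in XX and 0.30 ± 0.06 (FDR 0.00244) over both.

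E2f1 encodes the best known activator E2F, which switches on genes for DNA synthesis. In XX controls it was at 52.2, 52.0 and 50.02 CPM, and in XX KO gonads at 61.7, 67.6 and 71.7 CPM. In XY controls it was at 61.3, 53.6 and 56.0 CPM, and in XY KO gonads at 68.1, 77.3 and 61.4 CPM. The XY groups all but touched, since the highest control and the lowest KO library differed by little. On the log2 scale the change was 0.38 ± 0.10 (FDR 0.046) in XX, 0.28 ± 0.10 (FDR 0.0763) in XY and 0.33 ± 0.07 (FDR 0.00503) over both. The call in XX did not hold without any single XX library, XY control replicate 3 or XY KO replicate 1 (FDR 0.0537 to 0.176), while the call over both sexes held without any single library.

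The other activator E2Fs did not pass the test at E11.5. E2f2 ranged from 15.01 to 21.4 CPM over the 12 libraries, with a log2 fold change over both sexes of 0.06 (95% interval -0.15 to 0.27). E2f3 ranged from 77.3 to 99.2 CPM, with a log2 fold change of 0.01 (95% interval -0.15 to 0.16) whose sign turned when libraries were scaled by total count alone (-0.04). KO and control libraries of both genes overlapped in both sexes, although E2f3 carries a miR-17 8mer.

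Tgfbr2 encodes the type II receptor that binds TGF-beta ligands and activates the type I receptor. At E11.5 it was at 48.5, 71.8 and 60 CPM in XY controls and at 82.2, 79.6 and 85.2 CPM in XY KO gonads. In XX controls it was at 72.9, 65.0 and 72.7 CPM, against 94.1, 82.1 and 101 CPM in XX KO gonads. Every KO library was above every control library, also across the sexes. The change was 0.45 ± 0.12 (FDR 0.0244) in XY, 0.40 ± 0.12 (FDR 0.0928) in XX and 0.43 ± 0.09 (FDR 0.00362) over both, on the log2 scale. The call in XY ended without XY control replicate 1 or 3 or any XY KO library (FDR 0.0544 to 0.0957), and without XY control replicate 2, the highest of its group, the change was 0.60 (FDR 0.00268). The call over both sexes held without any single library.

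Thbs1, thrombospondin 1, is a secreted matrix protein that limits vessel growth and can activate latent TGF-beta. At E11.5 it was at 36.5, 50.6 and 37.9 CPM in XY controls and at 81.1, 56.5 and 52.7 CPM in XY KO gonads. In XX controls it was at 52.5, 42.1 and 51.6 CPM, and in XX KO gonads at 84.4, 59.3 and 62.8 CPM. Replicate 1 was the highest of both KO groups. Thbs1 differed by 0.61 ± 0.18 (FDR 0.043) in XY, 0.50 ± 0.18 (FDR 0.173) in XX and 0.55 ± 0.13 (FDR 0.0102) over both, on the log2 scale. The call in XY was lost without XY KO replicate 1 (0.39, FDR 0.188) and without XX control replicate 1 or 3, XY control replicate 1 or 3 or XY KO replicate 2 (FDR 0.0577 to 0.155), while the call over both sexes held without any single library.

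Bmpr2, the type II receptor for BMP ligands, and Phlpp2, a phosphatase that removes an activating phosphate from AKT, did not pass the test at E11.5. Bmpr2 was at 141, 199 and 142 CPM in XY controls and at 224, 197 and 184 CPM in XY KO gonads, and only XY control replicate 2 overlapped the KO range. In XX it was at 184, 165 and 202 CPM in controls and at 238, 208 and 184 CPM in KO gonads, with overlap. Its log2 fold change was 0.33 ± 0.14 (FDR 0.13) in XY, and 0.51 (FDR 0.0101) without that library. Over both sexes it was 0.26 ± 0.10 (FDR 0.0866), and 0.35 (FDR 0.00719) without that library. Phlpp2 had a log2 fold change of 0.16 ± 0.08 (FDR 0.19) over both sexes, with overlapping libraries in XX and XY.

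Cdkn1a encodes p21, an inhibitor of the cyclin-dependent kinases that is also switched on by p53. At E11.5 it was at 44.1, 40.4 and 47.4 CPM in XX controls and at 36.5, 51.7 and 39.8 CPM in XX KO gonads. In XY controls it was at 21.4, 37.9 and 22.5 CPM, and in XY KO gonads at 27.6, 22.7 and 25.4 CPM. XY control replicate 2 was again the high library. Its log2 fold change over both sexes was -0.08 (95% interval -0.37 to 0.21), and 0.08 without that library. XX controls exceeded XY controls by 0.68 ± 0.19 on the log2 scale (FDR 0.122), a comparison in which 0.886% of all genes and none of the 9 were called (1 of the 9 at an unadjusted p under 0.05, and 1 by DESeq2, each time Cdkn1a); without XY control replicate 2, Cdkn1a, Bmpr2 and Tgfbr2 were called there.

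At E11.5, 3 of 6 gonadal somatic markers were lower in KO over both sexes (median log2 fold change -0.28; summed level 893 to 1314 CPM in KO and 1109 to 1319 CPM in controls), as were 2 of 8 mesonephric markers (median -0.39; 215 to 305 CPM in KO and 208 to 352 CPM in controls), 1 of 6 germ cell and 1 of 6 erythroid markers. The summed level of 6 macrophage markers was 49.4 to 76.8 CPM in the KO libraries and 82.96 to 113 CPM in the controls, and 5 of the 6 were lower over both sexes. The sum of 6 endothelial markers was 591 to 855 CPM in KO and 555 to 734 CPM in controls, overlapping, with 1 of the 6 higher over both sexes. The 6 proliferation markers summed to 1416 to 1750 CPM in KO and 1302 to 1589 CPM in controls, with 1 of the 6 higher in XY. Over all genes 7.35% were called higher and 7.68% lower over both sexes, and 5.88% higher in XY. A single call among 6 markers is therefore not read as a change of that list. The part of these cells in the levels of the 9 genes was not tested.

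At E12.5 the picture was different. Over both sexes 2 of the 9 genes were called, Cdkn1a and Tgfbr2, both higher in mutant gonads; 18.5% of all genes were called in either direction, 1437 higher and 1215 lower. edgeR called none of the 9 lower, 2 were lower at an unadjusted p under 0.05 (E2f3 and Thbs1), and DESeq2 called 3 of the 9, with Thbs1 lower. The median log2 fold change of the 9 was -0.12 against -0.01 for all genes, and 3 of the 9 values were above 0. Both genes had all KO libraries above all control libraries in each sex, which was so for 3.61% of all genes. Each had p = 0.005 in the exact permutation test within sex, the smallest it can give, which this separation again fixes. In XY KO gonads Cdkn1a was higher and Thbs1 lower (20.6% of all genes were called in either direction and 10.3% higher). In XX KO gonads Tgfbr2 was higher (3.42% of all genes were called higher). Without XX KO replicate 2, 5 of the 9 were called over both sexes, with Bmpr2, E2f3 and Thbs1 lower. Over all genes 1519 were then called higher and 1556 lower.

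Cdkn1a had the largest change among the 9. At E12.5 it was at 11.45, 14.8 and 16.0 CPM in XY controls and at 34.7, 46.4 and 52.9 CPM in XY KO gonads. In XX controls it was at 45.7, 44.0 and 35.4 CPM, and in XX KO gonads at 58.7, 52.6 and 59.2 CPM. XY controls were the lowest group, far below the others, and XY KO gonads overlapped XX controls. The change on the log2 scale was 1.68 ± 0.18 (FDR 7.69e-06) in XY, a 3.20-fold higher level, against 0.44 ± 0.17 (FDR 0.13) in XX. The mutant effect was larger in XY than in XX by 1.23 ± 0.24 on the log2 scale (FDR 0.00306), in a test that called 12.9% of all genes and 2 of the 9. XX controls exceeded XY controls by 1.58 ± 0.18 (FDR 1.12e-05); this comparison, which called 23.8% of all genes and 3 of the 9, shares the XY control libraries with the mutant effect in XY.

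Thbs1 was the other gene whose mutant effect differed between the sexes. In XY controls it was at 140, 109 and 90.4 CPM, and in XY KO gonads at 59.3, 65.2 and 44.7 CPM. In XX controls it was at 46.6, 54.5 and 43.7 CPM, and in XX KO gonads at 50.2, 72.0 and 49.8 CPM. XY controls were the highest group and did not overlap any other. All 3 XY KO libraries were below all 3 XY controls, as for 19.3% of all genes. Its log2 fold change was -1.01 ± 0.19 (FDR 0.00162) in XY and 0.25 ± 0.19 (FDR 0.447) in XX, a difference of -1.26 ± 0.27 (FDR 0.00639). In controls, XX was lower than XY by 1.23 on the log2 scale (-1.23 ± 0.19, FDR 0.00027), again with the same XY control libraries.

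Tgfbr2 was at 65.6, 53.6 and 51.4 CPM in XY controls and at 78.9, 68.7 and 79.4 CPM in XY KO gonads. In XX controls it was at 41.3, 35.2 and 46.6 CPM, and in XX KO gonads at 56.4, 81.2 and 76.5 CPM. KO libraries were above controls of their sex throughout. Tgfbr2 differed on the log2 scale by 0.80 ± 0.16 (FDR 0.0141) in XX, 0.41 ± 0.16 (FDR 0.0801) in XY and 0.61 ± 0.11 (FDR 0.00156) over both; the difference between the sexes was -0.39 (95% interval -0.86 to 0.09, FDR 0.289). The call in XX was lost without XX control replicate 1 or 2 or XX KO replicate 3 (FDR 0.0626 to 0.0837), and the call over both sexes held without any single library. XX controls were lower than XY controls (-0.47 ± 0.16, FDR 0.0414), a call lost without XX control replicate 1 or 2, XY control replicate 1 or 2 or XY KO replicate 2 (FDR 0.0523 to 0.165). Tgfbr2 alone among the 9 had all KO libraries above all control libraries in both sexes at both stages, a pattern shared by 0.805% of the 13784 genes tested at both.

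**Figure D3:**
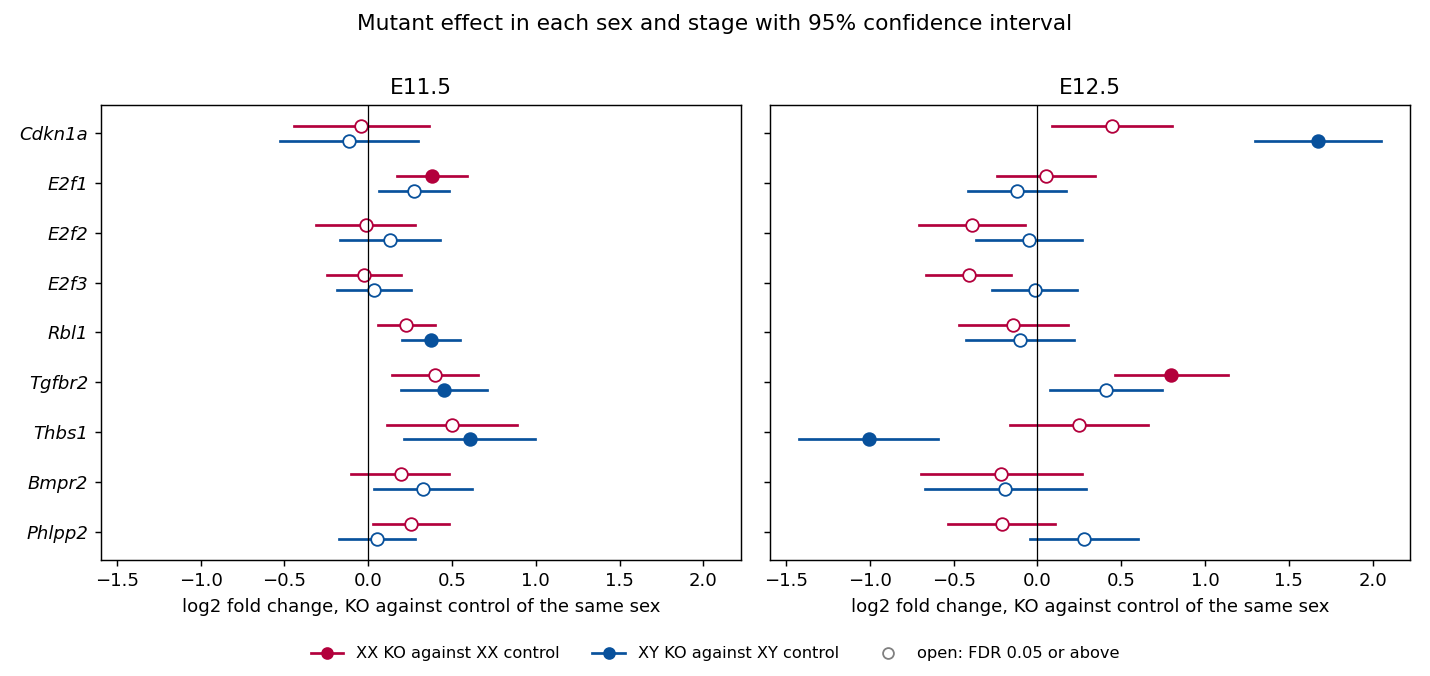
Points are log2 fold changes of KO against control gonads of the same sex (red XX, blue XY) and lines are 95% confidence intervals from the edgeR fit; filled points have an FDR under 0.05. At E12.5 Cdkn1a (1.68) and Thbs1 (-1.01) in XY are the points farthest from 0.

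The genes of the E2F and pocket protein group that were higher at E11.5 were not called at E12.5. E2f1 ranged from 50.6 to 70.3 CPM with overlap in both sexes and a log2 fold change over both of -0.03 (95% interval -0.24 to 0.17). Rbl1 ranged from 37.5 to 69.4 CPM, with a log2 fold change of -0.12 (95% interval -0.35 to 0.11). E2f2 was at 23.4, 25.6 and 22.8 CPM in XX controls and at 21.7, 18.3 and 14.7 CPM in XX KO gonads, with a log2 fold change of -0.39 ± 0.15 (FDR 0.129). E2f3 was at 76.9, 72.4 and 73.6 CPM in XX controls and at 53.9, 62.2 and 51.4 CPM in XX KO gonads. Its log2 fold change there was -0.41 ± 0.12 (FDR 0.0609), and -0.50 (FDR 0.0262) without XX KO replicate 2. It was also called lower by DESeq2 (-0.43, FDR 0.0145) and without XY control replicate 1 (-0.41, FDR 0.0429). In both genes the XX KO libraries lay below the XX controls, as in 10.5% of all genes, and in XY the groups overlapped.

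Bmpr2 was the most variable of the 9 at E12.5. In XX KO gonads it was at 143, 227 and 110 CPM, so that replicate 2 exceeded all XX controls (200, 188 and 170 CPM) and the others were below them. In XX its log2 fold change was -0.22 ± 0.22 (FDR 0.573), and -0.56 (FDR 0.0636) without replicate 2; in XY it was -0.19 ± 0.22 (FDR 0.615). Phlpp2 was at 54.8, 48.7 and 55.0 CPM in XY controls and at 67.9, 66.9 and 57.3 CPM in XY KO gonads, without overlap, as for 19.8% of all genes, and its log2 fold change there was 0.28 ± 0.15 (FDR 0.229).

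At E12.5 some marker lists also differed between KO and control gonads, not all of them in both sexes. The 8 mesonephric markers summed to 29.8 to 36.6 CPM in XY controls, 35.0 to 109 CPM in XY KO gonads, 37.9 to 45.8 CPM in XX controls and 58.1 to 147 CPM in XX KO gonads, and 6 of the 8 were higher and 1 lower over both sexes. In XY KO replicates 1 to 3 the mesonephric sums were 35.0, 68.7 and 109 CPM, the first within the XY control range. In the same order Cdkn1a was at 34.7, 46.4 and 52.9 CPM, rising with these sums. Tgfbr2 was at 78.9, 68.7 and 79.4 CPM and Thbs1 at 59.3, 65.2 and 44.7 CPM, without such an order. In XX KO replicates 1 to 3 the mesonephric sums were 58.1, 126 and 147 CPM. There Tgfbr2 was at 56.4, 81.2 and 76.5 CPM, lowest where the sum was lowest. Cdkn1a was at 58.7, 52.6 and 59.2 CPM and Thbs1 at 50.2, 72.0 and 49.8 CPM, without such an order. With 3 libraries a group these orders are a description and were not tested. The 6 endothelial markers summed to 702 to 787 CPM in XY KO gonads and 515 to 661 CPM in XY controls, with 2 of the 6 higher in XY. In XX their sums overlapped (568 to 737 CPM in KO gonads, 533 to 618 CPM in controls) and none of the 6 was called. The 6 proliferation markers summed to 1579 to 1738 CPM in XY KO gonads and 1937 to 2514 CPM in XY controls, with 4 of the 6 lower in XY. In XX their sums overlapped (1158 to 1531 CPM in KO gonads, 1430 to 1764 CPM in controls), with 1 of the 6 lower. The 6 germ cell markers summed to 386 to 838 CPM in XX KO gonads and 912 to 1640 CPM in XX controls, with 2 of the 6 lower in XX. In XY they summed to 714 to 876 CPM in KO gonads and 945 to 1238 CPM in controls, with 2 of the 6 lower in XY and 3 over both sexes. The 6 gonadal somatic markers summed to 1732 to 1819 CPM in XY KO gonads and 1357 to 1565 CPM in XY controls, with 3 higher and 1 lower. None of these 6 was called in XX. Over both sexes 2 of 6 erythroid markers were lower and 1 of 6 macrophage markers was higher. Over all genes 1474 were called higher and 1477 lower in XY, 490 and 265 in XX, and 1437 and 1215 over both sexes. At E12.5 too, the part of these cells in the levels of the 9 genes was not tested.

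Levels of different genes were compared only per kilobase of annotated exon. In XY controls at E11.5 the highest mean levels were those of E2f1 (18.1 ± 1.245 CPM per kb, SD, n = 3) and E2f3 (16.1 ± 1.52), whose ranges of error overlap, and the lowest was that of E2f2 (3.60 ± 0.250). In XY controls at E12.5 Cdkn1a (3.96 ± 0.662) and E2f2 (4.25 ± 0.101) were the lowest and did not differ beyond their spread, and E2f1 (19.7 ± 2.68) and Thbs1 (18.6 ± 4.15) were the highest.

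The partners of these genes were counted in lists chosen with earlier results of these data known, over both sexes. At E11.5, 7.35% of all genes were called higher and 7.68% lower, and at E12.5 18.5% were called in either direction and 8.47% lower. As counts these were 1045 higher and 1092 lower at E11.5, and 1437 and 1215 at E12.5. Without XY control replicate 2 they were 1363 and 1445 at E11.5, and without XX KO replicate 2 1519 and 1556 at E12.5. The list medians are given beside the medians of all genes, -0.01 at either stage.

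Of 21 partners at the G1/S transition, 5 rose and 1 fell at each stage (list median 0.07 at E11.5 and -0.02 at E12.5). Rbl2, the pocket protein closest to Rbl1, rose at both stages (0.44 ± 0.07, FDR 0.000744, and 0.35 ± 0.09, FDR 0.00985). Cdkn2c, an inhibitor of CDK4 and CDK6, rose at E11.5 (0.96 ± 0.14, FDR 0.000323) and at E12.5 (0.59 ± 0.13, FDR 0.00617), where the change was 1.05 (FDR 0.0102) in XX and 0.13 (FDR 0.691) in XY, a called sex difference (FDR 0.0329). Cdkn1b, the inhibitor p27, fell over both sexes at E11.5 (-0.27 ± 0.07, FDR 0.0206). At E12.5 its mean of 0.26 (FDR 0.251) covered 1.12 (FDR 0.00131) in XY and -0.61 (FDR 0.0957) in XX, with a sex difference of 1.73 (FDR 0.00103). Cdkn1c, the inhibitor p57, rose over both sexes at E12.5 (1.06 ± 0.16, FDR 0.000449), with 1.79 (FDR 6.81e-05) in XY against 0.33 (FDR 0.388) in XX and a sex difference of 1.45 (FDR 0.00763). Without XY control replicate 2, 8 of the 21 rose at E11.5, and without XX KO replicate 2, 4 rose and 3 fell at E12.5. The median at E12.5 turned to 0.003 with library size alone.

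Of 18 replication genes that E2F factors switch on, 2 rose and none fell at E11.5 (median 0.07), and 6 fell and none rose at E12.5 (median -0.23). Ccna2, cyclin A2, and Pola1, the catalytic subunit of the polymerase that primes DNA synthesis, rose at E11.5 (0.24 ± 0.07, FDR 0.0204, and 0.32 ± 0.09, FDR 0.0265). At E12.5 the replication licensing factors Cdc6, Mcm2 and Mcm5 and the helicase cofactor Cdc45 fell, by 0.41, 0.38, 0.40 and 0.48 on the log2 scale (FDR 0.00156 to 0.00976). The direction at E12.5 was the same with RLE scaling (7 lower), with library size alone (5 lower) and without XX KO replicate 2 (7 lower). Without XY control replicate 2, 4 rose at E11.5.

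Of 18 TGF-beta and thrombospondin partners, 4 rose and none fell at E11.5 (median 0.14), and 5 rose and 1 fell at E12.5 (median 0.08). The sexes differed at E12.5: 2 rose and 4 fell in XY (median 0.01), while 4 rose and none fell in XX (median 0.22). Over all genes 1474 rose and 1477 fell in XY, and 490 rose and 265 fell in XX. In the test of a different effect in the sexes, 1 of the 18 was called higher and 4 lower in XY than in XX, against 12.9% of all genes called. Thbs2, a relative of Thbs1, rose over both sexes at both stages (1.17 ± 0.11, FDR 1.58e-05, and 1.04 ± 0.20, FDR 0.00253), and at E12.5 the change was 1.81 (FDR 0.000467) in XY and 0.26 (FDR 0.583) in XX, a called sex difference (FDR 0.0202). The ligand Tgfb2 also rose over both sexes at both stages (0.40 ± 0.11, FDR 0.0213, and 0.44 ± 0.11, FDR 0.0134); at E12.5 it was at 0.09 (FDR 0.749) in XY and 0.79 (FDR 0.0158) in XX, with an FDR of 0.0562 for the difference. The ligand Tgfb3 rose at both stages as well (0.48 ± 0.11, FDR 0.00715, and 0.49 ± 0.13, FDR 0.0143). Thbs3 rose at E12.5 (0.89 ± 0.16, FDR 0.00126), where Skil, a repressor of SMAD signalling, fell (-0.68 ± 0.13, FDR 0.00267). Without XY control replicate 2, 7 of the 18 rose at E11.5.

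Of 15 BMP partners, 4 rose at each stage, with none lower at E11.5 and 1 lower at E12.5 (medians 0.12 and 0.11). Bmpr1a, a type I receptor that pairs with Bmpr2, rose at E11.5 (0.29 ± 0.06, FDR 0.00546), and the ligand Bmp2 (1.08 ± 0.11, FDR 1.52e-05) and the receptor Bmpr1b (0.74 ± 0.18, FDR 0.00994) at E12.5. Both differed between the sexes there: Bmp2 was at 2.16 (FDR 3.68e-07) in XY and -0.01 (FDR 0.987) in XX, and Bmpr1b at 1.53 (FDR 0.000668) in XY and -0.05 (FDR 0.919) in XX, with FDRs of 1.39e-05 and 0.00853 for the differences. Id2, a target of BMP signals, rose at both stages (0.26 ± 0.06, FDR 0.0075, and 0.60 ± 0.10, FDR 0.000784). With library size alone, 2 rose and 1 fell at E11.5. Without XX KO replicate 2, 4 rose and none fell at E12.5 (median 0.06).

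Of 15 PI3K-AKT partners of Phlpp2, 2 rose and 1 fell at E11.5 and 1 rose and 2 fell at E12.5 (medians -0.04 and -0.02). Pik3r1, the regulatory subunit of PI3K, rose at E12.5 (0.76 ± 0.11, FDR 0.000261), with 1.15 (FDR 9.27e-05) in XY and 0.38 (FDR 0.158) in XX, a called sex difference (FDR 0.0314). Foxo1, a transcription factor that AKT inhibits, fell at E12.5 (-0.51 ± 0.11, FDR 0.00366). Without XY control replicate 2, 3 rose and 1 fell at E11.5, and without XX KO replicate 2, 1 rose and 3 fell at E12.5.

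Of 17 other reported targets of the cluster, 4 rose and 1 fell at E11.5 (median 0.17), and 7 rose and none fell at E12.5 (median 0.16). Rbl2 (above) and Itga5 rose at both stages, Itga5, an integrin subunit, by 0.32 ± 0.08 (FDR 0.0112) and 0.40 ± 0.10 (FDR 0.0113). Without XX KO replicate 2, 4 rose and 1 fell at E12.5. With XY control replicate 2 left out, 6 rose and 2 fell at E11.5.

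**Figure D4:**
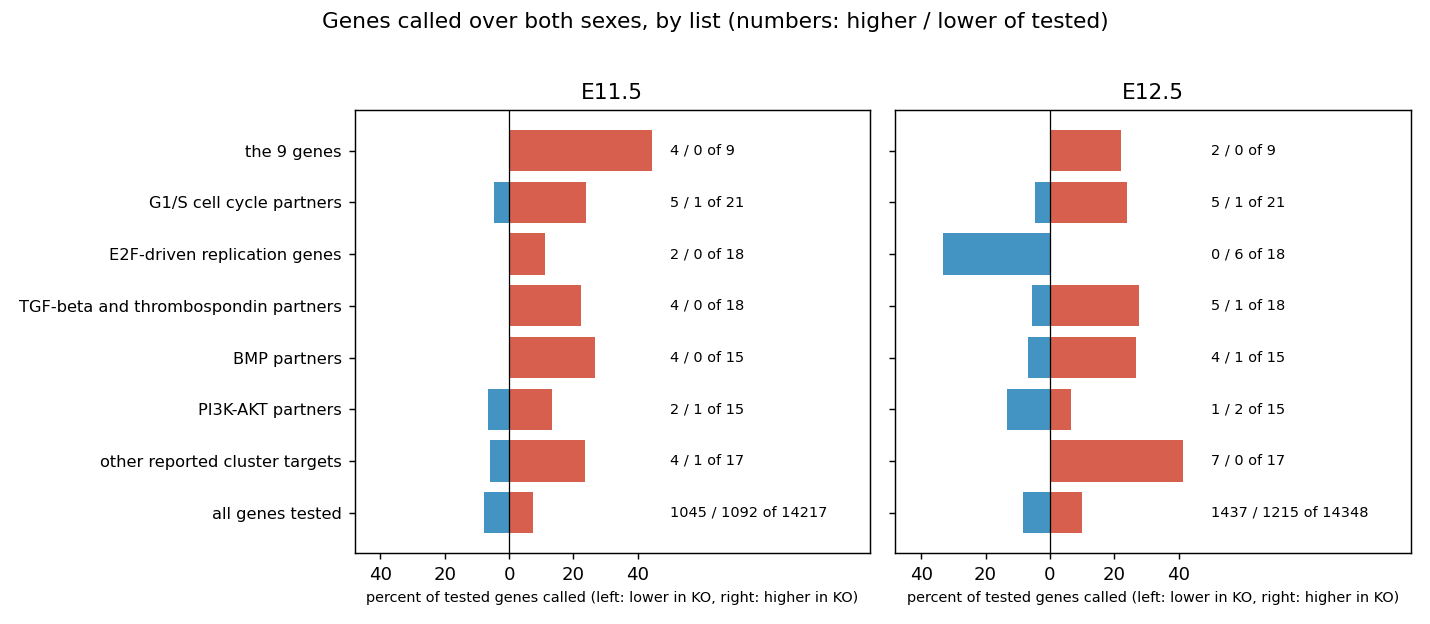
Bars give the percent of tested genes in each list called higher (red, right) or lower (blue, left) over both sexes at FDR under 0.05, with the counts printed beside them. At E11.5 the 9 genes have 4 higher and 0 lower; at E12.5 the replication genes have 0 higher and 6 lower.

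The genes with the most similar patterns were found by Pearson's r of log2 CPM, centred within stage, over 24 libraries and 13784 genes; the libraries share genotype and cell makeup, so these values are a description. For Cdkn1a they were Foxl2 (r = 0.93), a transcription factor of the ovary, and Bmp2 (r = 0.927). For Tgfbr2 they were Arsb (0.958) and P3h2 (0.936), for Thbs1 Pde5a (0.903) and Loxl2 (0.865), for Bmpr2 Fam210a (0.961) and Gucy1a2 (0.954), and for Phlpp2 Ralgapa1 (0.913) and Prkdc (0.903). For Rbl1 they were Suco (0.913) and Arl5a (0.908), for E2f3 Kif2a (0.862) and Zbed4 (0.856), and for E2f1 Sdc1 (0.777) and 2510039O18Rik (0.769). For E2f2 the first was Kit (0.842), a receptor of germ cells. Among the 9 genes themselves the highest r was between Rbl1 and Bmpr2 (0.785) and the lowest between Cdkn1a and Thbs1 (-0.55).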

How the data were processed

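RNA-seq of mouse gonads was analysed for 4 genotypes and 2 stages, 3 libraries each. The authors mapped reads to mm10, counted them per gene with featureCounts of the subread package and deposited whole-number counts, not normalized. The annotation and strand setting are not given in the sources used here. The Foxl2 3′ UTR mutant tables hold 12 columns of per-sample values not used here. Genes with at least 1 CPM in at least 2 libraries were tested with R 4.3.3 and edgeR 4.0.16 (limma 3.58.1): TMM, a mean per genotype over 12 libraries, legacy robust quasi-likelihood fit, FDR under 0.05; standard errors are the log2 fold change over the square root of F. Effects over both sexes are the mean of both KO groups minus that of both controls. The script was tested on simulated data. Labels do not say that libraries of a group came from separate litters, so p-values measure the spread between these libraries. Levels are CPM with TMM-scaled library sizes. Seed matches used RefSeq microRNAs and GENCODE 3′ UTRs of GRCm38. DESeq2 1.42.0, other scalings, filters, a replicate block and left-out libraries were alternatives. The newer edgeR fit was added after seeing the data. The 9 genes and the lists were chosen with earlier results of these data known. Named genes were the 9, Mir17hg, sex genes, up to 4 called genes per list and stage by FDR, and the 2 genes most like each member. Single genes that this rule also covers are not reported here.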

Additional observations from a re-analysis of the deposited data

Results flagged for a closer look

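Among the 9 genes, the mutant effect differed between XY and XX gonads for Cdkn1a and Thbs1 at E12.5, by the interaction term of the edgeR fit. For Cdkn1a the effect in XY minus that in XX was 1.23 on the log2 scale (FDR 0.00306), with all 6 KO libraries above all controls of their sex. For Thbs1 it was -1.26 (FDR 0.00639), with the 3 XY KO libraries below the XY controls and overlap in XX. Over the 20 alternatives the FDR ran from 3.19e-05 to 0.0107 for Cdkn1a and from 0.000352 to 0.0211 for Thbs1. Groups of 3 libraries are too small for a test of single outlying libraries.

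Of 35 partner genes called over both sexes and taken by lowest FDR (at most 4 per list and stage), 8 had a called sex difference at E12.5 and 0 at E11.5, by the same term. Over all tested genes this term called 12.9% at E12.5 and 0.0352% at E11.5. The 35 were picked by FDR in these same data, so their count is a description. The effect in XY minus that in XX was 2.17 for Bmp2, 1.73 for Cdkn1b, 1.58 for Bmpr1b, 1.55 for Thbs2, 1.45 for Cdkn1c, 0.81 for Smad5, which carries BMP signals to the nucleus, and 0.77 for Pik3r1. For Cdkn2c it was -0.92. Alternatives were not run for these genes one by one.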

How the results depend on the processing

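Of 59 values of the 9 genes that were refitted under each alternative, 18 were called. Of these, 13 kept the call under every alternative run and none of the 18 changed sign. The 59 were the mutant effects of every gene and, from the tests of a sex difference, only values called at E12.5. Among the values not called, 9 were called under some alternative. The calls lost under some alternative were those of Tgfbr2 and Thbs1 in XY and E2f1 in XX at E11.5, and of Tgfbr2 in XX and between controls at E12.5. With the 2 genotypes of a comparison alone, 1 of the 9 was called in XY at E11.5, 2 in XX at E11.5 and 0 in XX at E12.5. In XX at E11.5, 0 were called with library size alone, without a filter and with a replicate block. DESeq2 called 2 in XX at E12.5 and 1 between controls at E11.5.

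Leaving out each library in turn gave 1 to 4 genes called in XY and 0 to 2 in XX at E11.5, 0 to 3 between controls at E11.5, and 0 to 2 in XX and 2 to 5 over both sexes at E12.5. The 3 called in XY at E11.5 became 1 (Rbl1) without XY control replicate 1 or 3 or XY KO replicate 1 or 2. E2f1 in XX at E11.5 lost its call without any XX library, XY control replicate 3 or XY KO replicate 1. Tgfbr2 in XX at E12.5 lost it without XX control replicate 1 or 2 or XX KO replicate 3.

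Values near 0 changed sign. With library size alone E2f3 was -3e-04 in XY and -0.036 over both sexes at E11.5 and 0.0187 in XY at E12.5. Without single libraries at E11.5, Cdkn1a ran from -0.26 to 0.20 in XY, from -0.2045 to 0.0593 in XX and from -0.1604 to 0.0796 over both; E2f3 from -0.0447 to 0.1325 in XY, from -0.0865 to 0.0281 in XX and from -0.0343 to 0.0581 over both; E2f2 from -0.1023 to 0.1162 in XX. At E12.5, E2f2 ran from -0.1039 to 0.0086, E2f3 from -0.1112 to 0.0411 and Rbl1 from -0.2069 to 0.0231 in XY, E2f1 from -0.0123 to 0.1034 in XX and from -0.096 to 0.0161 over both, and Phlpp2 from -0.0477 to 0.0984 over both.

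Over all genes, 1804 were called in XY and 465 in XX at E11.5 and 755 in XX at E12.5; with the 2 genotypes alone 790 were called in XY at E11.5 and 252 in XX at E12.5, and with DESeq2 778 in XX at E11.5 and 1456 in XX at E12.5. Library size alone moved the share of higher calls at E11.5 from 46.3% to 36.6% in XY, from 55.5% to 41.8% in XX and from 48.9% to 35.4% over both. Correlations of same-numbered deviations ran from -0.507 to 0.45, without a steady pairing by replicate number. At E11.5, replicate 1 of XX KO and of XY KO had 0.33, against at most -0.01 with other numbers. Replicate 1 of XY control and of XY KO had -0.11, against up to 0.12. The labels do not say what libraries of the same number share. With the replicate block 1704 genes were called in XY and 388 in XX at E11.5. At E12.5, 3 of the 9 were then called over both sexes and 2 between controls. The pseudocount of 0.5 left the members at the smallest exact p at 4 and 2, as it must where the libraries do not overlap. Without 7mer-A1 matches all 9 kept a seed match. The causes were not tested. With 3 libraries a group, changes under the intervals given could not be detected.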
